A study of Mus musculus with 614 samples.

Results

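Common lymphoid progenitors (CLP) and cells sorted through a pre-pro-B gate were compared transcript by transcript in single cells of mouse bone marrow. The pre-pro-B gate held 30 cells and the CLP gate 48 cells, of 614 cells from 12 sort gates in the series. Membership came from the sort labels alone. By these labels, pre-pro-B gate cells were lineage-negative, positive for Flt3, B220, CD43, CD93, CXCR4 and IL7R, and low for CD117 (KIT) and CD24. CLP were lineage-negative, positive for CD127 (the same IL-7 receptor), CD34 and Flt3, low for c-Kit and Sca-1, and negative for Thy-1. All cells came from untreated adult C57BL/6J mice of 7 to 10 weeks. Each cell was captured on a microfluidic chip, its RNA was copied with oligo-dT primers, and it was sequenced as its own library. No label names an animal, so each gate counts as 1 sample, no test was made, and every SD is a spread over cells.

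CLP are marrow cells that can still give rise to B, T and natural killer cells and, in some assays, to dendritic cells. The pre-pro-B gate was defined as the first B220+ step on the B cell path, before the B cell receptor loci are fully rearranged. B220 and CD43 are also found on plasmacytoid dendritic cells (pDC), the blood and marrow cells that make large amounts of type I interferon. pDC identity depends on the E protein TCF4 together with SPIB, IRF8 and other regulators, and SIGLECH and BST2 are the surface proteins by which mouse pDC are usually recognised.

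The library numbers of CLP, pre-pro-B and GMP (granulocyte-monocyte progenitor) cells formed 1 unbroken run, with each gate as its own block, so the block of libraries and the gate cannot be told apart. Genes at 1 TPM (a transcript's share of a cell's total, scaled to a fixed sum) or more numbered 2671 to 6310 per pre-pro-B cell (median 3315.5) and 1356 to 5205 per CLP (median 3280). TPM keep no read counts, and the depth is unknown. Mitochondrial transcripts made up a median of 3.03% of the TPM in pre-pro-B cells and 4.57% in CLP. The gates differed in the sex of the cells: Xist without Y-linked transcripts was found in 20 of 30 pre-pro-B cells and 9 of 48 CLP, and Y-linked transcripts without Xist in 1 and 29. Both were found in 4 pre-pro-B cells and 0 CLP, and neither in 5 and 10. Whether those 4 cells were doublets or held carried-over transcripts was not tested. Genes that are abundant in GMP appeared at low levels throughout the run. Elane, a neutrophil granule protease with a median of 8498 TPM in GMP, was at 1 TPM or more in 28 of 30 pre-pro-B cells and 46 of 48 CLP. It reached 100 TPM in 0 and 1 of them. Shares of cells are therefore given at 100 TPM, with those at 1 TPM beside them for scarce transcripts, and their exact Clopper-Pearson 95% intervals cover counting error only.

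Throughout, a difference is the mean over cells of log2(TPM + 1) in the pre-pro-B gate minus that in CLP, a scale that understates changes of low genes. In all, 6886 genes reached 1 TPM in 20% or more of the cells of a gate. Of these 3.66% were higher in the pre-pro-B gate by 2 or more and 1.87% lower by 2 or more, a rule of size and not a test. Any difference above 0 was found in 56.3% and any below 0 in 43.7%, the background for the counts of members that follow. These shares are of genes that passed the filter. The counts of members above or below 0 take in all members found, unless the filter is named. When only the cells with Xist and no Y-linked transcript were used, 5.52% were higher and 6.00% lower by 2 or more, and with the log2 of the mean TPM 4.55% and 5.27%. In the plot of gate means, Ly6d, Siglech and Ly6c2 lay far above the diagonal, and Fos, Egr1 and Ier2 far below it.

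**Figure D1:**
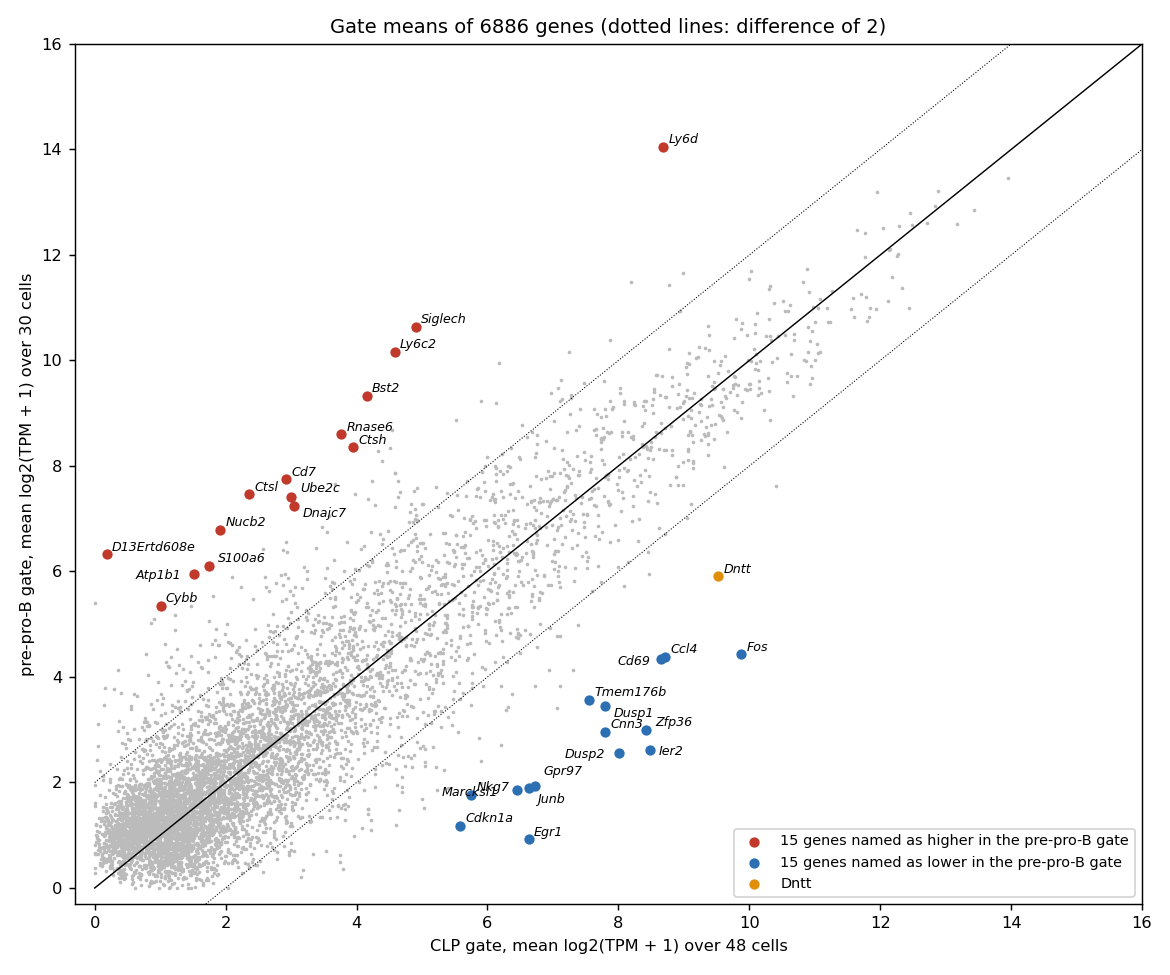
Mean log2(TPM + 1) of 6886 genes over 48 CLP (x axis) and 30 pre-pro-B cells (y axis). Coloured points are the 15 named genes with the largest differences in each direction and Dntt, the solid line marks equal means and the dotted lines a difference of 2; Siglech lies 5.74 above the solid line and Ier2 5.86 below it.

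The gate was checked against the B lineage and against some sort markers of the 2 gates. Among 17 B lineage genes, Pax5, which fixes B cell identity, Pou2af1, Igll1 and Lef1 were listed at 0 in all 78 cells. Ebf1, which starts the B cell programme, was at 1 TPM or more in 2 of 30 pre-pro-B cells and 9 of 48 CLP, and reached 100 TPM in 1 and 0. Vpreb1, part of the surrogate light chain, was listed at 0 in all 30 pre-pro-B cells (a count of 0 leaves room for a share of 10%) and was at 1 TPM or more in 5 of 48 CLP and at 100 TPM in 4. Of the list, 6 members were higher and 6 lower in the pre-pro-B gate, none by 2 or more. Only 6 of the 17 passed the filter, and the list median of 0 is that of the members listed at 0 in all cells. The highest were Blk, a B cell kinase (difference 1.67), Cd72 (1.33) and Foxo1 (1.31). Among the sort transcripts, Cxcr4 was higher in the pre-pro-B gate by 2.54 and Ptprc, which encodes B220, by 0.97. TPM were given per symbol, so they do not single out the B220 form. Spn (CD43), Il7r, Kit, Cd24a and Flt3 are not given here. Cd34, whose protein the CLP gate was sorted for, had a difference of -3.51. Cd93 had a difference of -2.03 although the pre-pro-B gate was sorted as CD93+, and Ly6a, which encodes Sca-1, had one of 3.55. Pax5, a defining transcript of committed B cells, was thus not found in these 30 cells, which are called below by their gate only.

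Ly6d (GENCODE M21 on GRCm38, chr15:74762056-74763620, minus strand) and Siglech (chr7:55768178-55778925, plus strand) were high in every cell of the pre-pro-B gate. Ly6d, a surface marker of lymphoid progenitors that have started towards B cells, was at 6661, 17387 and 40631 TPM (lowest, median and highest cell). In CLP these values were 2.24, 553 and 25795 TPM. The log2 means were 14.05 ± 0.62 (SD, n = 30 cells) and 8.69 ± 3.88 (SD, n = 48 cells), a difference of 5.37. CLP were divided: 29 of 48 reached 100 TPM of Ly6d, and 3 exceeded the pre-pro-B median. On the log2 of the mean TPM, which gives the highest cells more weight, the difference of Ly6d was 2.24.

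Siglech encodes a sialic acid binding receptor of pDC. It was at 288.7, 1872 and 4477 TPM in pre-pro-B cells and at 0, 7.31 and 1389 TPM in CLP, a difference of 5.74. All 30 pre-pro-B cells were at 100 TPM or more (interval 88.4% to 100%), against 21 of 48 CLP (43.8%, interval 29.5% to 58.8%). No CLP exceeded the pre-pro-B median, although the ranges overlapped. The spread over pre-pro-B cells was narrow (SD 0.92) beside that over CLP (SD 3.74).

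Bst2, an interferon-inducible membrane protein that tethers viruses, was at 0, 1241 and 3128 TPM in pre-pro-B cells and at 0, 4.66 and 1774 TPM in CLP (difference 5.18). At 100 TPM or more were 27 of 30 and 20 of 48 cells. Ctsl, the lysosomal protease cathepsin L, was at 0, 364 and 1741 TPM against 0, 1.25 and 640.6 TPM (difference 5.11), with 23 and 7 cells at 100 TPM. Both genes were low in a few pre-pro-B cells and high in a minority of CLP, so that the ranges overlapped.

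Dntt and Cnn3 went the other way. Dntt encodes terminal deoxynucleotidyl transferase, which adds nucleotides at the joints of antigen receptor genes. It was at 0.86, 82.2 and 2589 TPM in pre-pro-B cells and at 2.42, 1692 and 6889 TPM in CLP (difference -3.62). It reached 100 TPM in 13 of 30 pre-pro-B cells (43.3%) and 40 of 48 CLP (83.3%). Cnn3, a calponin that binds actin, was at 0, 1.31 and 1008.1 TPM against 0, 405 and 1332 TPM (difference -4.83), and reached 100 TPM in 8 and 40 cells. Only 2 pre-pro-B cells exceeded the CLP median of Dntt and 3 that of Cnn3.

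**Figure D2:**
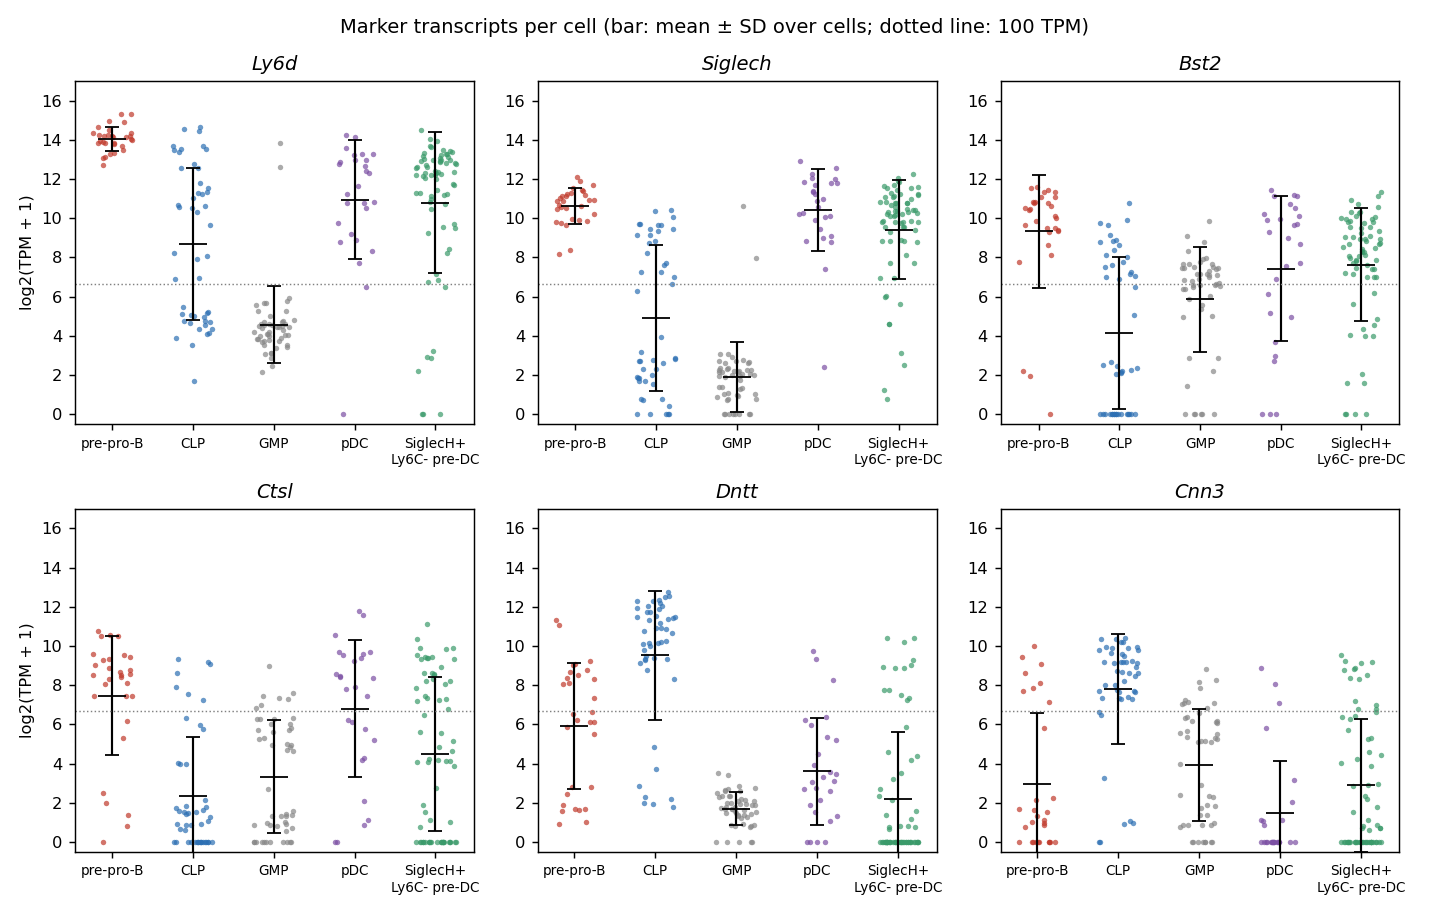
Log2(TPM + 1) of 6 marker genes in single cells of 5 gates; each point is a cell, the bar and whiskers are the mean ± SD over cells, and the dotted line is 100 TPM. Ly6d and Siglech are above the line in all 30 pre-pro-B cells and spread across the whole scale in the 48 CLP, whereas Dntt is above the line in 40 CLP and 13 pre-pro-B cells.

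The same markers were set beside 2 more gates of the series, the 27 pDC and the 70 SiglecH+Ly6C- precursors of dendritic cells (pre-DC). Their libraries belong to other number runs. The 45 SiglecH+Ly6C+ pre-DC were left out of this marker comparison. Median Siglech was 1912 TPM in pDC and 1187 TPM in those pre-DC, near the 1872 TPM of the pre-pro-B gate. Median Ly6d was 3225 and 4791 TPM, below the lowest pre-pro-B cell. Dntt reached 100 TPM in 3 of 27 pDC and 13 of 70 pre-DC. Over 12660 genes, the mean profile of the pre-pro-B gate had its highest Spearman correlations with CLP (0.900) and GMP (0.855). These are the 2 gates of its own library run. Of the gates of other runs, lymphoid-primed multipotent (0.698), common monocyte (0.667) and common dendritic progenitors (0.635) came next. The SiglecH+Ly6C- pre-DC (0.623) followed, and pDC (0.537) came after all others but blood pre-DC (0.417). These are correlations across genes, and the library run was shared only with the first pair.

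Transcripts were also counted together in the same cell at 100 TPM. Doublets were not called, and the 4 pre-pro-B cells with both Xist and Y-linked transcripts were kept, which limits these joint counts. Ly6d and Siglech occurred together in all 30 pre-pro-B cells and in 17 of 48 CLP, while 12 CLP had Ly6d alone, 4 had Siglech alone and 15 had neither. Dntt and Siglech occurred together in 13 pre-pro-B cells and 16 CLP. Siglech without Dntt was found in 17 pre-pro-B cells and 5 CLP, and Dntt without Siglech in 0 and 24. All 30 pre-pro-B cells had Siglech at this level, so their joint counts with it only repeat those of the other gene. In CLP the share with both Dntt and Siglech, 33.3%, lay near the product of the separate shares, 36.5%. The pre-pro-B cells thus had the pDC marker with or without Dntt. Of them 5 had both Spib and Dntt (16.7%, product 15.9%).

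**Figure D3:**
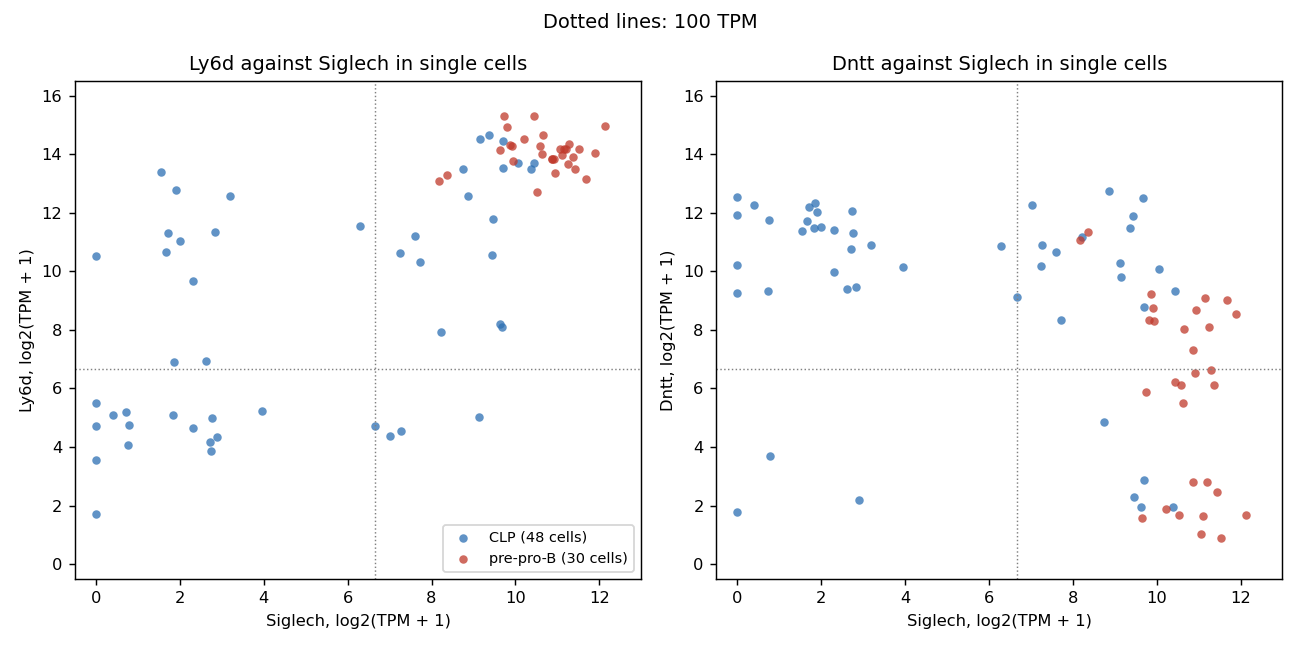
Ly6d (left) and Dntt (right) against Siglech in single cells, all as log2(TPM + 1), with dotted lines at 100 TPM. All 30 pre-pro-B cells lie in the upper right field for Ly6d, together with 17 CLP; for Dntt the pre-pro-B cells are divided into 13 above and 17 below the line.

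Nearly all pDC surface and effector genes were higher in the pre-pro-B gate. Of 22 members 21 were higher and 15 passed a difference of 2, against 3.66% of all genes, and the list median was 2.98 against 0.14 for all genes. The only lower member was Cnn3. This list overlaps the markers the comparison was chosen with, and so its direction is a description. Siglech and Bst2 led the list, followed by Rnase6, a secreted ribonuclease (4.83), and Cd7, a lymphoid surface protein (4.82). Rnase6 was at 0, 522 and 2689.5 TPM in pre-pro-B cells and at 0, 1.83 and 1149 TPM in CLP. Cybb, the membrane subunit of the phagocyte oxidase, was at 0, 91.4 and 721 TPM against 0, 0.33 and 97.6 TPM (4.35). At 100 TPM or more were 14 of 30 pre-pro-B cells and 0 of 48 CLP (limit 6.25%). Ccr9, the gut-homing chemokine receptor of mature pDC, reached 100 TPM in 10 and 3 cells (3.65). Pacsin1, an endocytic adaptor of pDC, did so in 10 and 0 cells (3.33). Klk1 and Klra17 were listed at 0 in all CLP and were at 1 TPM or more in 7 and 8 pre-pro-B cells, of which 6 and 5 reached 100 TPM. The endosomal receptors for nucleic acids were low in both gates: Tlr9 was at 1 TPM or more in 2 of 30 and 2 of 48 cells, and Tlr7 in 11 and 5, and at 100 TPM these numbers were 1 and 0 for Tlr9 and 6 and 4 for Tlr7.

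A pre-pro-B cell had 5 to 18 of the 22 pDC genes at 10 TPM or more (median 12), and a CLP had 2 to 10 (median 4.5). More than 50% of the list was reached in 16 of 30 pre-pro-B cells and in 0 of 48 CLP. The summed level of the list was 2844 to 16731 TPM per pre-pro-B cell and 302 to 10974 TPM per CLP, so its ranges overlapped.

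The transcription factors of pDC had smaller differences, and their size depended on the scale. Of 10 members 9 were higher and 4 by 2 or more, against 56.3% and 3.66% of all genes, with a median of 1.34. With a pseudocount of 10 the median was 0.69, and with the log2 of the mean TPM it was 0.35. Spib was at 0, 39.1 and 465.4 TPM in pre-pro-B cells and at 0, 0 and 232.5 TPM in CLP (3.79), and reached 100 TPM in 11 and 1 cells. Irf8 was at 316.3, 1249 and 2438 TPM against 0, 282 and 57218 TPM (2.92), with a spread of only 0.61 over the pre-pro-B cells. Tcf4 was at 0.85, 146 and 575 TPM against 0, 31.02 and 6197 TPM (2.13), well under its median of 855.8 TPM in the pDC gate. On the log2 of the mean TPM the differences of Irf8 (-0.41) and Tcf4 (-0.42) turned. The highest value of both genes was in 1 CLP, number 42, the cell with the fewest genes (1356), and without it they were 1.39 and 0.63 on that scale and the list median was 0.52. Runx2, which acts in the exit of pDC from marrow, had a difference of 2.03. Mef2c was the lowest member (-1.09). Among E protein and Id genes, Id3, an inhibitor of E proteins, was higher by 2.44, and reached 100 TPM in 9 and 2 cells.

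The 300-base promoter windows of Siglech and Bst2 (RefSeq, GRCm38.p6, from 250 bases before the start to 50 after it) are shown because they were the pair of marker promoters with the E-box CAGGTG, a motif that E proteins such as TCF4 bind. It was searched on both strands (CACCTG on the other), and matches are in capitals. Siglech is on the plus strand at chr7:55767934-55768233 and Bst2 on the minus strand at chr8:71537423-71537722.
Siglech: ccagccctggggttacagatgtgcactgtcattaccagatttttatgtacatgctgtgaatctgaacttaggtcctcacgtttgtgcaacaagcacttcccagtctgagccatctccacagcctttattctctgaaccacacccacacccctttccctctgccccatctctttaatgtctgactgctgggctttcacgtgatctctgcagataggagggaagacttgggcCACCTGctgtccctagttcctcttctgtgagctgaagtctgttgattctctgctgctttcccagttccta
Bst2: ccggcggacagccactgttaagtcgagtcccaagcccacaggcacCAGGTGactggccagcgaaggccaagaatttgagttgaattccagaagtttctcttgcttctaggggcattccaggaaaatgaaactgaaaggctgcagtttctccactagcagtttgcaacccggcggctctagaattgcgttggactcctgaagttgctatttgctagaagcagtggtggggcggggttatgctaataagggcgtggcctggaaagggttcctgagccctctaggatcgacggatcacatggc
Each window held 1 match, and those of Ctsl, Dntt and Cnn3 held 0. Ly6d was not among the sequences. Of 32851 promoters in the RefSeq set 20.2% held the motif, as did 6 of 19 promoters of the pDC surface and effector genes (31.6%). Those 6 include Siglech and Bst2, which were picked for the motif, so this share is no independent count. Among the promoters of the pDC transcription factors it was found in 2 of 18 (11.1%), which belong to 9 genes. A match describes the letters and not binding.

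Lysosomal genes were the next group with higher levels. Of 17 proteases and partners 14 were higher and 7 passed a difference of 2, against 56.3% and 3.66% of all genes. The median was 1.65. After Ctsl came Ctsh (4.40), another cysteine cathepsin, at 1.42, 549.8 and 1689 TPM in pre-pro-B cells and at 0, 4.21 and 1255 TPM in CLP. Grn, the lysosomal protein progranulin, had a difference of 3.97 and Ctsb one of 3.06. Ctsb was present in every pre-pro-B cell, at 86.8 TPM or more. Lgmn (-0.87) and Ctsc (-0.71) were the lowest members. Of 7 MHC class II genes 6 were higher, against 56.3% of all genes. They were led by the invariant chain Cd74 (3.38), H2-Aa (3.20) and H2-Eb1 (2.62), and each was low in many cells. H2-Aa reached 100 TPM in 10 of 30 pre-pro-B cells and 1 of 48 CLP, H2-Eb1 in 8 and 0, and Cd74 in 18 and 10. H2-DMa went the other way (-1.24).

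Genes of the secretory pathway were higher in 13 of 16 cases, against 56.3% of all genes, with a median of 1.52. Herpud1, which serves the degradation of misfolded proteins, had the highest difference (3.20), followed by the chaperone Hsp90b1 (2.13) and the translocon subunit Sec61b (2.08). Hsp90b1 was at 108, 694.4 and 1962 TPM in pre-pro-B cells and at 0, 206 and 1195 TPM in CLP. The plasma cell genes Mzb1 (2.05) and Xbp1 (1.98), which plasma cells and pDC share as secretory cells, were higher as well, whereas Irf4 and Prdm1 did not reach 100 TPM in any cell of the 2 gates. Interferon genes as a list were not: 9 of 16 were higher and the median was 0.24. Its extremes were Bst2, Ifi27l2a (3.79) and, on the lower side, Ifitm3 (-3.17), which restricts virus entry. Isg15, a widely induced interferon target, reached 100 TPM in 1 of 30 and 0 of 48 cells.

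**Figure D4:**
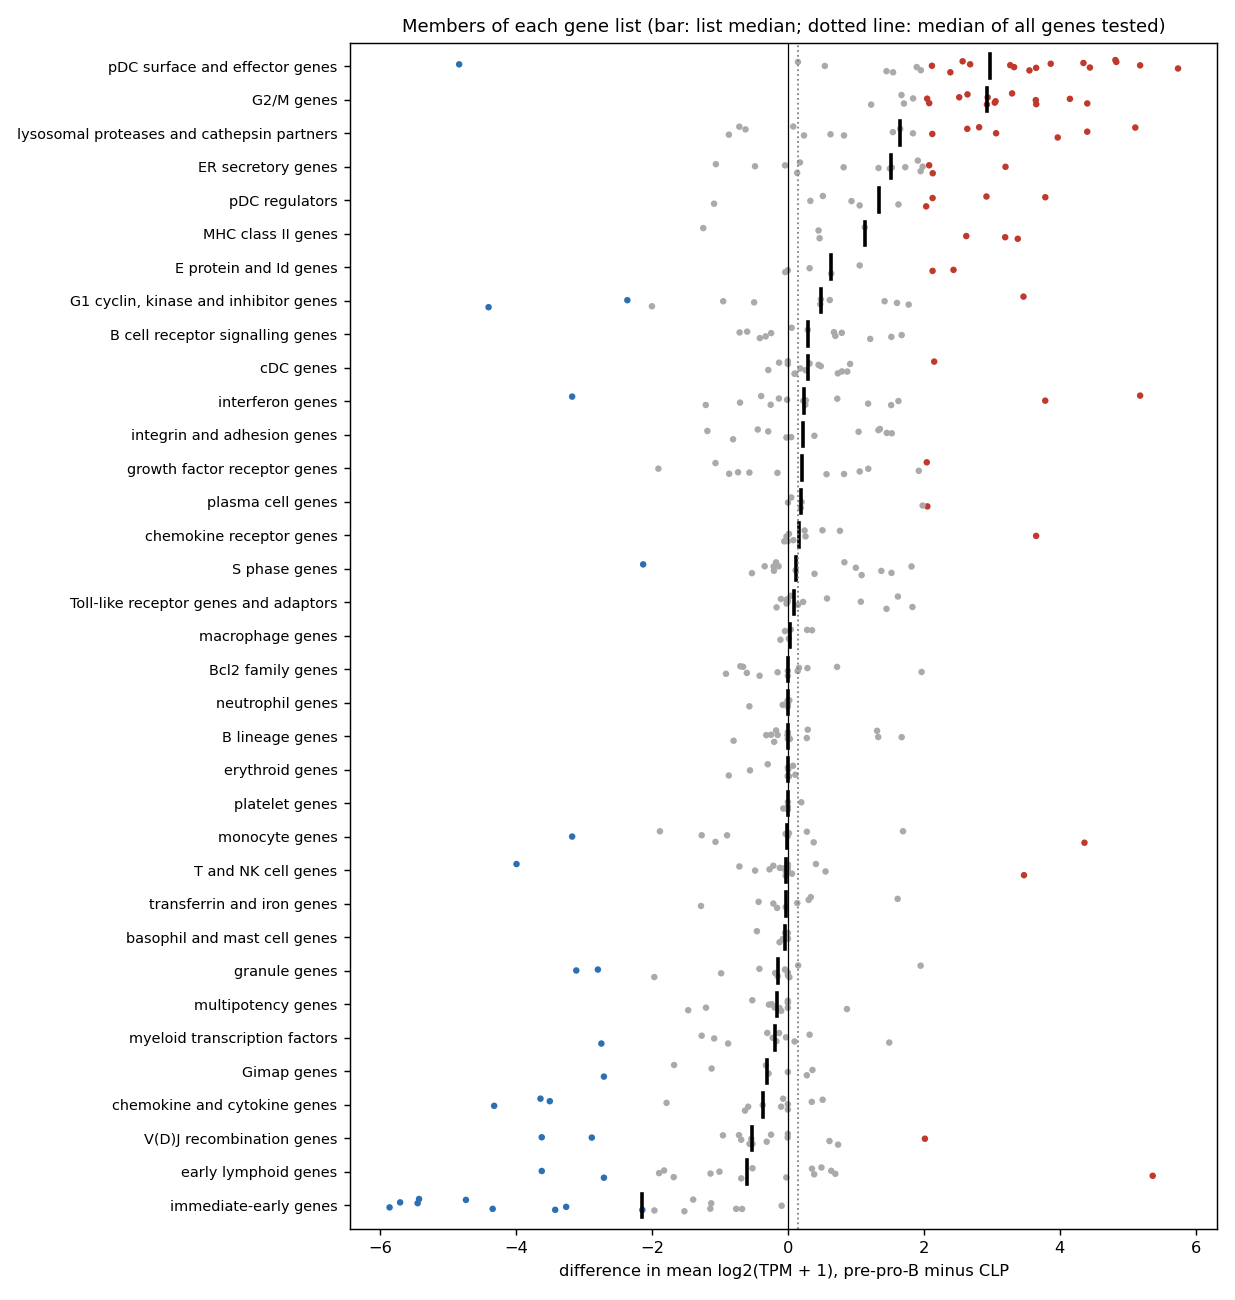
Differences in mean log2(TPM + 1), pre-pro-B minus CLP, of the members of the gene lists; each point is a gene, red at 2 or more and blue at -2 or less, the bar is the list median and the dotted line the median of all genes tested. The pDC surface list (2.98) and the G2/M list (2.93) have the highest medians and the immediate-early list (-2.14) the lowest.

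Cell cycle genes of G2 and mitosis were higher, whereas the genes of S phase were divided. All 17 G2/M genes were higher, against 56.3% of all genes, 13 of them by 2 or more against 3.66%, and the median was 2.93. Ube2c, the ubiquitin carrier of the anaphase-promoting complex, was at 0, 499.01 and 7109 TPM in pre-pro-B cells and at 0, 2.54 and 5843 TPM in CLP (4.40). Birc5, the survivin subunit of the chromosomal passenger complex, was at 0, 901.8 and 3389 TPM against 0, 4.46 and 2973 TPM (4.15). Top2a, the topoisomerase that untangles chromosomes, was at 0, 184 and 836 TPM against 0, 1.01 and 496.3 TPM (3.65), and reached 100 TPM in 21 of 30 and 13 of 48 cells. High levels of these genes were also found in some CLP, in a smaller share of cells. At 10 TPM or more a pre-pro-B cell had 1 to 17 of the 17 genes (median 11) and a CLP 0 to 16 (median 2). More than 50% of the list was reached in 18 of 30 and 9 of 48 cells.

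Of 15 S phase genes 8 were higher and 7 lower, with a median of 0.11 whose sign depended on the processing. Rrm2 had the highest difference (1.82) and Mcm3, a subunit of the replicative helicase, the lowest (-2.13). A pre-pro-B cell had 1 to 14 of them at 10 TPM or more (median 7.5) and a CLP 0 to 15 (median 7). Among pre-pro-B cells the mean levels of the S phase and G2/M lists had a Spearman correlation of -0.315 over 30 cells, and among CLP one of 0.549 over 48 cells. In CLP both lists also went with the number of genes per cell (0.668 and 0.512), a measure of library complexity; in pre-pro-B cells these correlations were -0.002 and 0.392. Top2a and Siglech occurred together at 100 TPM in 9 of 48 CLP (18.8%, product of the separate shares 11.8%). All 30 pre-pro-B cells had Siglech at that level, so their joint count, 21, is that of Top2a alone.

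The windows of Ube2c and Top2a are shown as examples of genes that were higher together. The CCAAT box (CCAAT or, on the other strand, ATTGG) and the cell cycle homology region (TTTGAA or TTCAAA), elements known from promoters of mitotic genes, are in capitals. Ube2c is on the plus strand at chr2:164769679-164769978 and Top2a on the minus strand at chr11:99024140-99024439 (RefSeq, GRCm38.p6).
Ube2c: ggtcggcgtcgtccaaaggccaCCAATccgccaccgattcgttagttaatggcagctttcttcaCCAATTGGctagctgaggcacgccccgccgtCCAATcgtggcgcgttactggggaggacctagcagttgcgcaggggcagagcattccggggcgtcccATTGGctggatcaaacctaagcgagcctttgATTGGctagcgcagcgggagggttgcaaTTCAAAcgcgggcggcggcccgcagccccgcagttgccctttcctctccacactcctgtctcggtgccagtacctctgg
Top2a: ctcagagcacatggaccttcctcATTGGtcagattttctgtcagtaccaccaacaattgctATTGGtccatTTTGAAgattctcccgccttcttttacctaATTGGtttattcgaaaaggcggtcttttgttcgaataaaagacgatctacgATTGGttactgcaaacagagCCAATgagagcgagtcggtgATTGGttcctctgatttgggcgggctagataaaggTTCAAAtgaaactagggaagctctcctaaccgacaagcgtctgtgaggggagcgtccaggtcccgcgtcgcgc
Ube2c held 6 CCAAT boxes and 1 homology region, and Top2a 6 and 2. A CCAAT box was found in 13 of 14 promoters of the G2/M list (92.9%), in 12 of 16 of the S phase list (75%) and in 37.4% of all promoters. The homology region was found in 10 of 14 G2/M promoters (71.4%), 2 of 16 S phase promoters (12.5%) and 17.9% of all promoters. Other letters of the known elements were not searched.

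Regulators of the G1 phase were divided. Cdkn1a, the inhibitor p21, was at 0, 0 and 872.4 TPM in pre-pro-B cells and at 0, 148 and 1545 TPM in CLP (-4.40), and reached 100 TPM in 2 of 30 and 27 of 48 cells. Cyclin D2 (Ccnd2, -2.36) and Cdk6 (-1.999) were lower too. Cdkn2d, an inhibitor of CDK4 and CDK6, was higher by 3.47 and at 0, 457.3 and 1446 TPM against 0, 1.48 and 505.1 TPM.

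**Figure D5:**
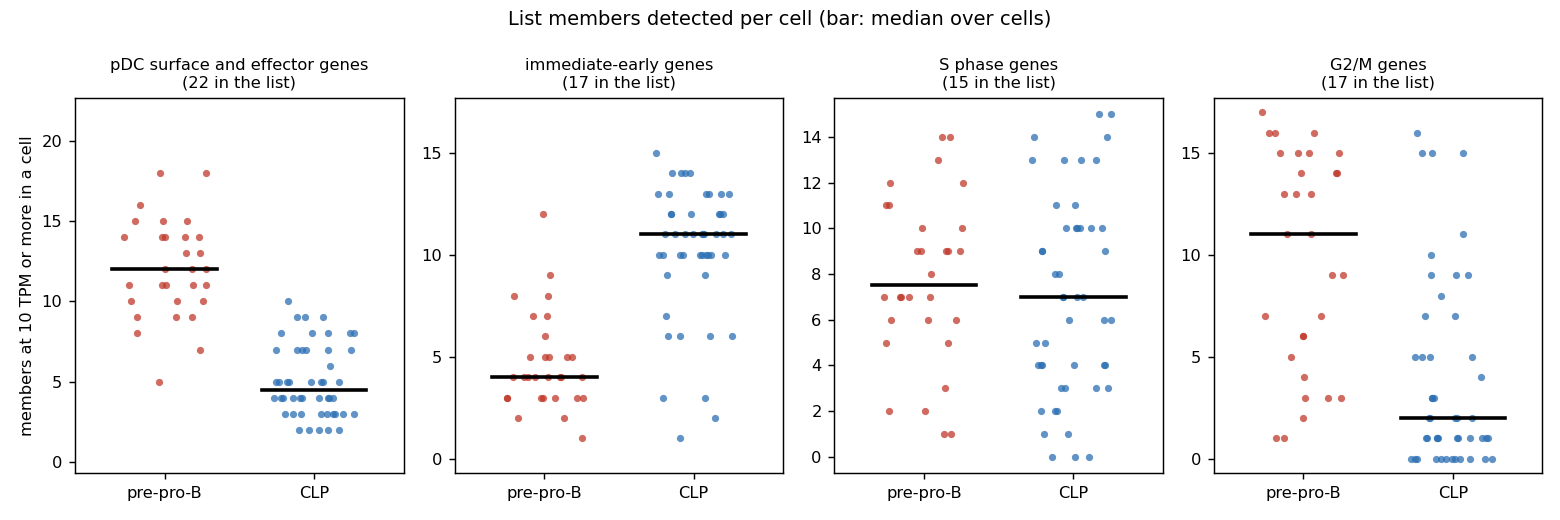
Number of members at 10 TPM or more per cell for 4 gene lists; each point is a cell and the bar is the median of the gate. The medians are 12 and 4.5 for pDC genes, 4 and 11 for immediate-early genes, 7.5 and 7 for S phase genes and 11 and 2 for G2/M genes, in pre-pro-B cells and CLP.

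Immediate-early genes, which cells switch on within minutes of a stimulus, were lower in the pre-pro-B gate as a group. All 17 were lower, against 43.7% of all genes, 9 of them by 2 or more against 1.87%, and the median was -2.14. Ier2 had the largest difference (-5.86), at 0, 1.29 and 660.4 TPM in pre-pro-B cells and at 0, 691.5 and 2044 TPM in CLP. Egr1, a zinc finger factor, was at 0, 0.56 and 45.9 TPM against 0, 235.4 and 1775 TPM (-5.70). At 100 TPM or more were 0 of 30 pre-pro-B cells (limit 10%) and 30 of 48 CLP. Fos, a subunit of AP-1, was at 0, 8.71 and 1013.2 TPM against 2.23, 1460.0 and 8457 TPM (-5.44). No pre-pro-B cell exceeded the CLP median of Ier2, Egr1 or Fos. Zfp36 (-5.42), which destabilises mRNA, Junb (-4.73) and the phosphatase Dusp1 (-4.34) had the next differences. More than 50% of the list was at 10 TPM or more in 2 of 30 pre-pro-B cells and in 39 of 48 CLP.

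In CLP these genes varied with other groups. The immediate-early level had a Spearman correlation of 0.635 with the early lymphoid genes other than Dntt, of 0.578 with Dntt and of -0.365 with the pDC surface genes, over 48 cells of 1 gate. In pre-pro-B cells the first of these was 0.278 and the last -0.055 over 30 cells. Median Fos was 18.02 TPM in GMP, the other gate of the run, and median Egr1 was 0.51 TPM there, both below the CLP medians.

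Dusp2, a phosphatase gene of activated lymphocytes, was at 0, 1.39 and 1035 TPM in pre-pro-B cells and at 0, 604 and 5766 TPM in CLP (-5.45). Cd69, an early activation antigen, had a difference of -4.32. Of 13 chemokine and cytokine genes 9 were lower. Only 6 passed the filter, of which 2 were higher, against 56.3% of all genes, and 3 were lower by 2 or more, against 1.87%. These 3 were the chemokines Ccl4 (-4.32) and Ccl3 (-3.50) and the interleukin-12 subunit Il12a (-3.64). Among cells with Xist and no Y-linked transcript (20 and 9 cells) the difference of Ccl3 was only -0.92. Ccl4 ranged up to 21451 TPM in CLP and reached 100 TPM in 36 of 48 CLP and 11 of 30 pre-pro-B cells. Il12a was at 0, 5.67 and 1059.9 TPM against 0, 527 and 2751 TPM.

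Early lymphoid genes had no common direction. Of 16 members 6 were higher and 10 lower, with a median of -0.60. Ly6d was the only one higher by 2 or more, and Dntt and Gimap6 (-2.71), a small GTPase gene of lymphocytes, were the ones lower by 2 or more. Ighm, the immunoglobulin mu locus, was at 643.4, 2063 and 6694 TPM in pre-pro-B cells and at 347, 1678 and 5659 TPM in CLP, a difference of 0.35. Cd27 (-1.68), Satb1 (-1.82) and Sox4 (-1.89) were at lower levels. The recombinase was scarce in both gates, with Rag1 at 1 TPM or more in 2 of 30 and 11 of 48 cells and Rag2 in 2 and 8, and at 100 TPM in 0 and 1 for Rag1 and 1 and 5 for Rag2. Of 15 V(D)J recombination genes 3 were higher and 11 lower. Only 6 passed the filter, of which 2 were higher, against 56.3% of all genes. The end-joining subunit Xrcc6 was at -2.88 and the DNA-bending Hmgb2, which also serves dividing cells, at 2.02.

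Of 12 multipotency genes 8 were lower, against 43.7% of all genes, and 1 higher, with a median of -0.16. Most were scarce: 3 of the 12 passed the filter and 3 were at 0 in all 78 cells. The largest differences were those of Meis1 (-1.47) and Lmo2 (-1.20), and Hoxa9 (0.87) was the higher one. Spi1, the factor PU.1, was at 0, 1.27 and 311.1 TPM in pre-pro-B cells and at 0, 108 and 451.2 TPM in CLP (-2.74). Of 13 granule genes 8 were lower and 4 higher, with a median of -0.15. Of the 9 that passed the filter 2 were higher, against 56.3% of all genes. Among them Cst7, a cystatin (-3.11), and Srgn, the proteoglycan of granules (-2.79), passed a difference of 2. Mpo, myeloperoxidase, was at 6.55, 13.2 and 26.2 TPM in pre-pro-B cells, a narrow low band, and at 5.32, 24.7 and 2092 TPM in CLP (-1.96). Of the cells, 0 of 30 and 19 of 48 reached 100 TPM. In GMP its median was 14138 TPM. With all values under 10 TPM set to 0, the differences of Mpo, Cst7 and Srgn were -2.12, -3.27 and -2.90. This cut lay below the pre-pro-B median of Mpo (13.2 TPM), so it could not remove the low band of that gene.

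Other lineages gave little. Of 17 T and NK cell genes the receptor subunits Cd3d, Cd3e and Cd3g did not exceed 1.86 TPM in any cell, whereas Nkg7, a granule membrane protein, was lower (-3.99) and Klrd1, the CD94 receptor chain, higher (3.47). Klrd1 reached 100 TPM in 18 of 30 pre-pro-B cells and 11 of 48 CLP. Of 12 monocyte genes 5 were higher and 7 lower, with a median of -0.017. Their extremes were S100a6 (4.36) and Ifitm3 (-3.17). Among conventional dendritic cell genes, Xcr1 was listed at 0 in all 78 cells, Zbtb46 did not exceed 5.31 TPM in any cell, and Clec10a had the largest difference (2.15). No erythroid, platelet, neutrophil, basophil or macrophage gene passed a difference of 2. The complement genes C1qa, C1qb and C1qc, made by macrophages, were under 10 TPM in every pre-pro-B cell and at up to 11.2 TPM in CLP.

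The largest single difference among all 6886 genes compared, in either direction, belonged to D13Ertd608e, whose role is not described here, at 0, 310.4 and 1652 TPM in pre-pro-B cells and at 0, 0 and 18.3 TPM in CLP (6.14). It reached 100 TPM in 19 of 30 and 0 of 48 cells, and in 11 of 27 pDC. Ly6c2, which encodes the surface protein Ly6C, was at 8.41, 2018 and 10176 TPM against 0, 14.5 and 5202 TPM (5.59). Its near copy Ly6c1 was higher by 2.63, and how the counting shared reads between them is uncertain. In GMP, the next block of the run, the median of Ly6c2 was 9609 TPM. Nucb2, a calcium-binding protein of the secretory pathway, had a difference of 4.87, the sodium pump subunit Atp1b1 one of 4.44 and the co-chaperone Dnajc7 one of 4.20. On the lower side were Gpr97 (-4.78), an adhesion receptor, Marcksl1 (-4.60), an actin-linked kinase substrate, and Tmem176b (-3.99), a membrane protein. For all of these the ranges of the 2 gates overlapped.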

How the data were processed

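The authors deposited TPM for each cell and symbol. The submitters' processing notes name RSEM 1.2.19 and GRCm38; neither aligner nor annotation is given in the sources used here. The deposited TPM are relative within a cell and keep no depth, so genes at 1 TPM or more stand in for it. Of 43280 symbols, 27875 were 0 in all 78 cells.

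From these, the mean over cells of log2(TPM + 1) was computed per gate and subtracted, with a pseudocount of 1, a filter of 1 TPM in 20% of the cells of either gate and a threshold of 2. Cells of a gate are not replicates, so no p-value or standard error was computed. Intervals of shares are exact Clopper-Pearson intervals at 95%, and the limit beside a share of 0 is that of 3 counts. The named genes are the 15 largest differences in each direction of genes that reached 1 TPM in 50% or more of the higher gate's cells. Sort transcripts, antigen receptor segments, sex-linked, ribosomal protein and mitochondrial genes, pseudogenes and predicted genes were left out. The 6 given markers and, of each of 36 lists, the 2 highest and 2 lowest members and those beyond 2 were added; other members named were chosen after their values were seen. The markers, the comparison and the lists were chosen with earlier results of these data known, and the promoters of Ube2c and Top2a after seeing their values. Azu1, Adgre1 and Jchain, members of lists, were not found among the symbols. The values of 1 B lineage gene are not reported here.

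The alternatives were other pseudocounts, the log2 of the mean TPM, size factors, other filters, subsets of cells by number of genes, and low values set to 0. Added after seeing the data were cells with Xist only, the log2 of the mean TPM without the CLP with the fewest genes, and the lower-numbered and higher-numbered libraries of each gate. Doublets were not called, but dropping the richest 5% of cells was among the alternatives. Symbols and coordinates were checked against GENCODE M21, which held 39469 of the symbols. Computation used scipy 1.17.1, pandas 2.3.3 and numpy 2.4.6 under Python 3.11.15, with matplotlib 3.10.9 for plots. The steps were tested on simulated data.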

Additional observations from a re-analysis of the deposited data

How the results depend on the processing

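The 31 named genes and markers were recomputed under 12 alternatives each. In all 372 combinations the sign was that reported, and in 364 the size was 2 or more. The exceptions, all with the log2 of the mean TPM, were Cd7 (1.63), Dnajc7 (1.79), Rnase6 (1.84) and Ctsh (1.84), each also under 2 without CLP 42. Of 58 other list members (those past 2, and Mpo), the sign held under these alternatives with 3 exceptions; it turned for Irf8 (-0.41) and Tcf4 (-0.42) with the log2 of the mean TPM, and for the cyclin gene Ccnb2 (-0.092) in the lower-numbered libraries. The size of these 58 held less well, so the counts of list members past 2 depended on the scale. Many fell under 2 with a pseudocount of 10, and many with the log2 of the mean TPM. Examples on the latter were Klrd1 (0.68), Herpud1 (1.28) and Ccnb2 (0.42). Among cells with Xist and no Y-linked transcript, Ccl3 (-0.92), the cathepsin Ctsz (0.96), Mcm3 (-1.03), Mzb1 (1.27) and Hmgb2 (1.74) fell under 2 in size. The shares of genes past a difference of 2 (3.66% higher, 1.87% lower) moved most. They were 8.99% and 4.46% with a pseudocount of 0.1, and 0.90% and 0.45% with one of 10. The log2 of the mean TPM gave 4.55% and 5.27%, and without CLP 42, 4.63% and 4.98%; cells in the shared range of genes per cell (24 and 28 cells) gave 3.18% and 3.09%. The filter at 5% of cells gave 2.23% and 1.14%, and that at 50% gave 8.13% and 3.87%. Cells with Xist and no Y-linked transcript (20 and 9 cells) gave 5.52% and 6.00%. The lower-numbered libraries of each gate (15 and 24 cells) gave 4.64% and 4.10%, and the higher-numbered ones 6.28% and 2.09%. The S phase median changed sign with a pseudocount of 10 (-0.053), in the shared range (-0.45), with values under 10 TPM set to 0 (-0.12) and in the higher-numbered libraries (-0.69). The early lymphoid median was 0.13 in the higher-numbered libraries. The granule median was -1.62 with the log2 of the mean TPM and -0.98 among genes at 1 TPM or more in 50% of cells, and by that filter 1 B lineage gene was left, at 1.33. The pDC surface median was 1.76 with a pseudocount of 10. The cause of these shifts was not tested. Subsets left fewer cells, and the filter at 5% compared 11295 genes and that at 50% 2892, against 6886 in the main setting. The G2/M median kept its sign under each alternative (1.73 to 3.80), as did the immediate-early median (-3.42 to -1.44). No paired analysis was possible because each sample is 1 cell, its number only names it, and the results come from no test. The unknown depth limits every statement on genes listed at 0.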
